A study of Mus musculus with 8 samples.

Results

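The 32 genes described here are markers and working parts of the blood-brain barrier: 23 genes of brain endothelial cells and 9 of mural cells, the pericytes and smooth muscle cells that wrap vessels. They were taken from a list of 32 gene symbols, each matched to the symbol column of the array's probe table. All 32 were found, each with 1 probe set, among 19505 named genes, and all 32 lay above the floor on low values that left 14628 genes to test. Hippocampi came from 8 mice at 18 to 20 months of age, and their strain was B6.Cg-Tg(APPswe)E1-2Dbo/J. Every mouse thus carried the APPswe transgene, a form of the amyloid precursor protein with a mutation found in a Swedish family with Alzheimer's disease, and no group without it was analysed here. After the Morris water maze, in which mice learn where a hidden platform lies, 4 mice were classed as having impaired memory and 4 as having intact memory. Each mouse gave 1 array of whole hippocampus, with values on a log2 scale, so a difference of 1 means a doubling. Of 8 tested markers of hippocampal neurons, 7 lay above the upper quartile of the array's intron probe sets, which serve as a background.

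Endothelial cells of the brain are sealed to each other by tight junctions, which stop molecules from slipping between cells, and they carry few vesicles. Nutrients therefore enter through dedicated transporters, and pumps return many drugs and toxins to the blood. Growth factor receptors of the VEGF and angiopoietin systems keep the endothelium alive and quiet, pericytes restrain its vesicle traffic, and smooth muscle sets the bore of arterioles. In Alzheimer's disease and its mouse models amyloid can also settle in vessel walls, which is one reason these genes are of interest in such mice. The comparison asked whether vascular transcripts differed between impaired and intact mice that share the transgene and the age. In whole tissue, fewer vascular cells and less RNA per vascular cell cannot be told apart.

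No member passed the test between the groups. Of the 32 members, 0 had an adjusted p under 0.05, and 0.0% of all genes did so (limma, Benjamini-Hochberg adjustment over all genes tested). By an unadjusted p under 0.05, 1 member stood out, Mfsd2a, against 4.68% of all genes, which is a share of the members near the background. Mfsd2a was under that threshold in 7 of 17 alternative settings and not in the other 10. Adjusted p ran from 0.961 to 0.996 over the members. The largest difference in size was 0.41, that of Tek, or 1.33-fold. Means were lower in the impaired mice for 21 of 32 members, or 65.6%, beside 52.9% of all genes, and higher for 11, beside 47.1% of all genes. The median difference, impaired minus intact, was -0.065 over the members and -0.0083 over all genes tested.

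The lean towards lower means was uneven across the roles. All 7 junction and adhesion genes and all 6 receptor genes had lower means in the impaired mice, with median differences of -0.095 and -0.13. The 7 transporters were split, with 3 lower and 4 higher (median 0.015), and so were the 6 pericyte genes, with 3 lower and 3 higher (median -0.014). Of the 3 smooth muscle genes 1 was lower, and of the 3 remaining endothelial markers 1 was lower. Of these 13 junction and receptor genes, 10 were lower without impaired mouse 4, 11 without impaired mouse 2 or intact mouse 3, and 12 or 13 without any other mouse. These counts describe means that did not pass the test, and they call nothing particular to a role.

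**Figure D1:**
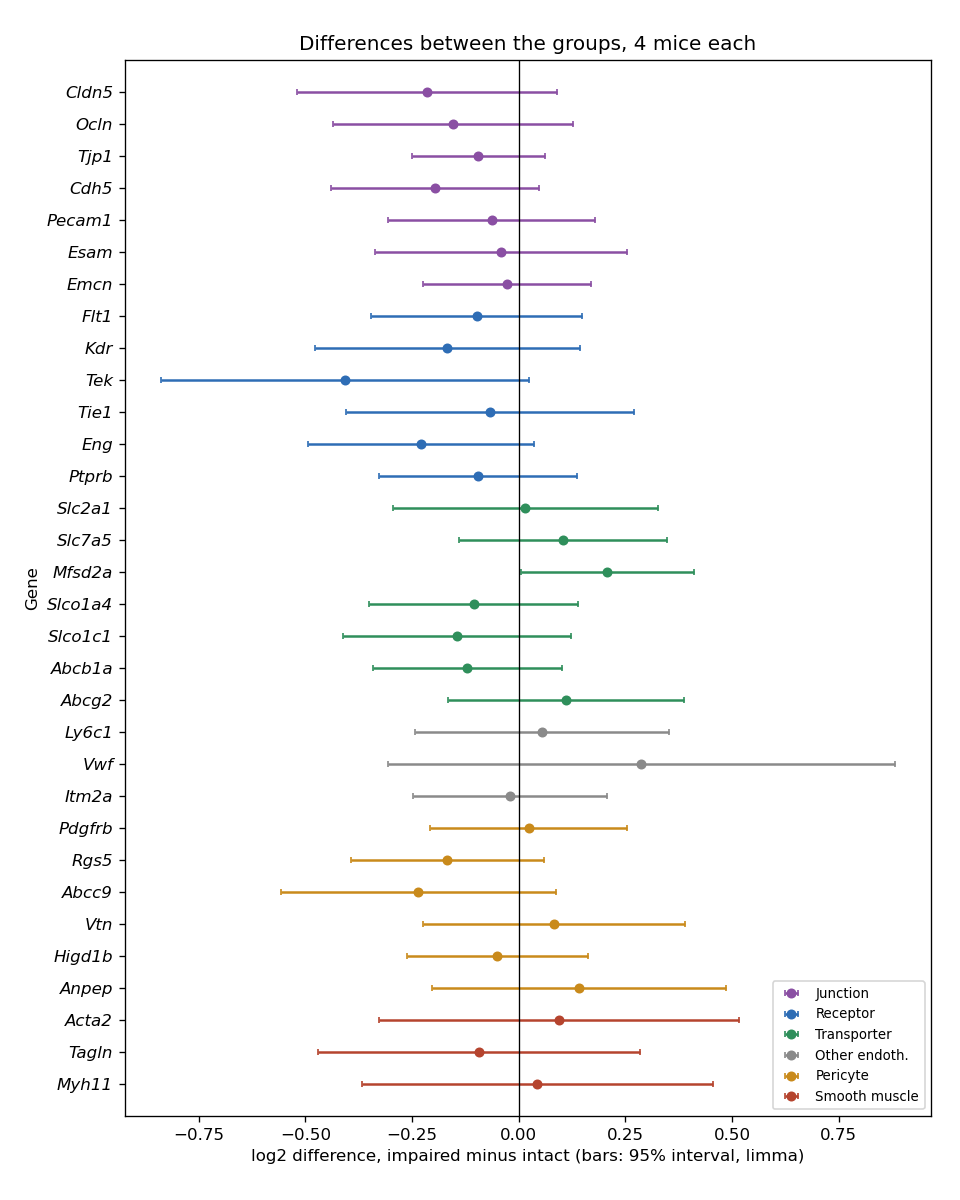
Log2 difference of each of the 32 genes, impaired minus intact, with the 95% interval from limma (horizontal axis), grouped by role from junction genes at the top to smooth muscle genes at the bottom (4 mice per group). All 13 junction and receptor genes lie left of 0, and only the interval of Mfsd2a, from 0.0050 to 0.41, leaves out 0.

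The upstream sequence of 4 genes is shown because Mfsd2a and Tjp1 were the members whose groups did not overlap, and Tek and Eng had the smallest p among the receptors. Each is the 250 bases before 1 transcription start in RefSeq (GRCm38.p6), read 5′ to 3′ on the strand of the gene. Capitals mark letters of 3 searched motifs on either strand: the ETS core GGAAG, bound by the ETS factors that endothelial genes share, the GC box GGGCGG, and the LEF/TCF motif CTTTGA of the Wnt pathway. No searched motifs overlapped in these windows.
Mfsd2a (chr4:122961189-122961438, minus strand): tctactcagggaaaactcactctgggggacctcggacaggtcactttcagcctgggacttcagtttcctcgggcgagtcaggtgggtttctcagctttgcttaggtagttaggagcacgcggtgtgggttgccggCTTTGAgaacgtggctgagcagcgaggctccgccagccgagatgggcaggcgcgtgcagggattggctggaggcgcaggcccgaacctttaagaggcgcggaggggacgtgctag
Tjp1 (chr7:65371245-65371494, minus strand): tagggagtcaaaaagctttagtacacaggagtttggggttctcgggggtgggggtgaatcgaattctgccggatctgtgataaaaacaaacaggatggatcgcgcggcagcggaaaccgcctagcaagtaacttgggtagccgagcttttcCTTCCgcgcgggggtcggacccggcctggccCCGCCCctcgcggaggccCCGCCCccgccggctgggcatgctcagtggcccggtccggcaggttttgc
Tek (chr4:94739039-94739288, plus strand): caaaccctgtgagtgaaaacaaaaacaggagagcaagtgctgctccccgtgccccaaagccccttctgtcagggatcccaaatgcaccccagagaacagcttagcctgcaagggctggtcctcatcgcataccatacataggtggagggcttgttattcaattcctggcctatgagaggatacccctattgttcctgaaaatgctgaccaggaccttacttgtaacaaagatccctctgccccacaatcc
Eng (chr2:32646345-32646594, plus strand): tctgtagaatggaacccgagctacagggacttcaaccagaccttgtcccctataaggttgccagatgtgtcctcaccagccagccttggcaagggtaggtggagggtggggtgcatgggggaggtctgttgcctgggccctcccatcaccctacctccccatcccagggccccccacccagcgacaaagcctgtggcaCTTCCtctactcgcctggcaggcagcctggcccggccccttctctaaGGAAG

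The Mfsd2a window held 1 LEF/TCF match and the Tjp1 window 1 ETS match and 2 GC boxes. The Eng window held 2 ETS matches, and none of these letters occurred in the Tek window. The RefSeq table had 22 of the 32 members, with 26 start sites. The ETS core was in 69.2% of these 26 windows, beside 64.1% of all 32851 windows of the same length. The GC box was in 46.2%, beside 32.7%, and the LEF/TCF motif in 11.5%, beside 13.8%. Such matches describe letters and show no binding.

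Among the junction genes, Cldn5 encodes claudin 5, the main claudin of brain endothelium. It stood at 7.56, 6.98, 7.59 and 7.40 in the impaired mice, against 7.61, 7.77, 7.60 and 7.40 in the intact mice. Impaired mouse 2 was lowest and intact mouse 2 highest, and the other 6 mice lay between 7.40 and 7.61, so that the groups overlapped. Group means differed by -0.22 (standard error 0.14, adjusted p = 0.961 by limma). Leaving out impaired mouse 2 made this -0.081. Ocln, which encodes the tight junction protein occludin, had 6.89, 7.21, 7.15 and 7.42 in impaired mice and 7.55, 7.14, 7.19 and 7.41 in intact mice. The lowest value was that of impaired mouse 1 and the highest that of intact mouse 1, and the other values were interleaved (difference -0.15, standard error 0.13, and -0.062 without impaired mouse 1).

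Tjp1 encodes ZO-1, a scaffold that ties claudins and occludin to actin, and it is also made by neurons and glia. Its values were 8.89, 8.92, 8.88 and 8.84 in the impaired mice, against 9.02, 8.94, 8.98 and 8.98 in the intact mice. The groups did not overlap, although the gap between them was narrow, from 8.92 in impaired mouse 2 to 8.94 in intact mouse 2. The difference was -0.095 with a standard error of 0.070, 1.07-fold lower in the impaired mice (limma, adjusted p = 0.961, unadjusted p = 0.206). Its residual SD was 0.033, beside a median of 0.15 over all genes tested, and limma draws so small a spread towards the others. Non-overlapping groups occurred in 2 of 32 members, or 6.25%, beside 2.58% of all genes. Tjp1 was the 1 member that was lower without overlap, beside 1.46% of all genes, and Mfsd2a the 1 that was higher, beside 1.12%.

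Cdh5, the cadherin that holds endothelial cells together, stood at 6.96, 7.29, 7.21 and 7.19 in impaired mice, against 7.31, 7.63, 7.27 and 7.22 in intact mice. Impaired mouse 1 was lowest and intact mouse 2 highest, and the difference of -0.20 (standard error 0.11) became -0.11 without intact mouse 2. Pecam1, an adhesion molecule of all endothelium, had 6.99, 6.53, 6.88 and 7.04 in impaired mice and 6.91, 6.94, 6.96 and 6.89 in intact mice. All intact mice lay inside the impaired range, in which impaired mouse 2 alone was low. Without that mouse the difference of -0.063 turned to 0.046. Esam, an adhesion molecule of endothelial junctions, likewise turned from -0.041 to 0.054 without impaired mouse 2, and Emcn, an endothelial sialomucin, differed by -0.028 (standard errors 0.13 and 0.089).

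The mean deviation of the 7 junction genes from their averages over all mice was -0.058, -0.17, 0.034 and -0.036 in the impaired mice, against 0.065, 0.050, 0.063 and 0.048 in the intact mice. All 4 impaired values thus lay below all 4 intact values, with the intact mice close together and impaired mouse 2 farthest from them. The gap was narrow, from 0.034 in impaired mouse 3 to 0.048 in intact mouse 4, and of the 7 genes Tjp1 alone had groups without overlap. This summary rests on the same values as the single genes and is given without a test.

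The receptor genes came next, and Tek gave the largest difference of all members. Tek encodes TIE2, the receptor of the angiopoietins. Its values were 6.85, 6.09, 7.11 and 6.45 in the impaired mice, against 6.78, 7.24, 7.08 and 7.03 in the intact mice. Impaired mice 2 and 4 were below every intact mouse, while impaired mice 1 and 3 lay within the intact range. The difference was -0.41 with a standard error of 0.20 and a 95% interval from -0.84 to 0.024 (limma, adjusted p = 0.961, unadjusted p = 0.0616). It was -0.23 without impaired mouse 2 and -0.57 without impaired mouse 3. Tie1, the related receptor that tunes TIE2 signalling, had 6.43, 6.74, 7.08 and 6.45 in impaired mice and 6.50, 6.91, 6.63 and 6.92 in intact mice. All intact values lay within the range of the impaired ones (difference -0.067, standard error 0.15).

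Eng encodes endoglin, a co-receptor for ligands of the TGF-beta family in endothelium. It stood at 8.07, 7.83, 8.03 and 7.77 in the impaired mice, against 7.96, 8.47, 8.09 and 8.12 in the intact mice. Intact mouse 2 was the highest and impaired mice 2 and 4 the lowest, with the other 5 mice between 7.96 and 8.12. The difference was -0.23 (standard error 0.12, adjusted p = 0.961 by limma). Leaving out intact mouse 2 made this -0.13. Kdr, the main signalling receptor for VEGF-A, had 6.90, 6.59, 6.62 and 7.15 in impaired mice and 6.97, 7.26, 6.82 and 6.88 in intact mice. The groups overlapped, with impaired mice 2 and 3 low and intact mouse 2 high (difference -0.17, standard error 0.14). Without intact mouse 2 the Kdr difference was -0.074.

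Flt1, a VEGF receptor that largely acts as a trap for the ligand, had 8.72, 8.70, 8.98 and 8.72 in impaired mice and 8.83, 9.14, 8.67 and 8.88 in intact mice. Intact mouse 2 was again the highest, impaired mouse 3 stood above the other impaired mice, and the difference of -0.099 (standard error 0.11) shrank to -0.012 without intact mouse 2. Ptprb, the phosphatase VE-PTP that holds TIE2 signalling in check, was 6.48 in impaired mouse 1 and between 6.68 and 6.96 in the other mice (difference -0.096, standard error 0.10). Without impaired mouse 1 the Ptprb difference was -0.0092. Over the 6 receptor genes the mean deviation was -0.11, -0.22, 0.11 and -0.14 in the impaired mice, against -0.044, 0.31, 0.0046 and 0.088 in the intact mice. Intact mouse 2 was the highest of all 8 mice for 4 of these 6 genes.

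**Figure D2:**
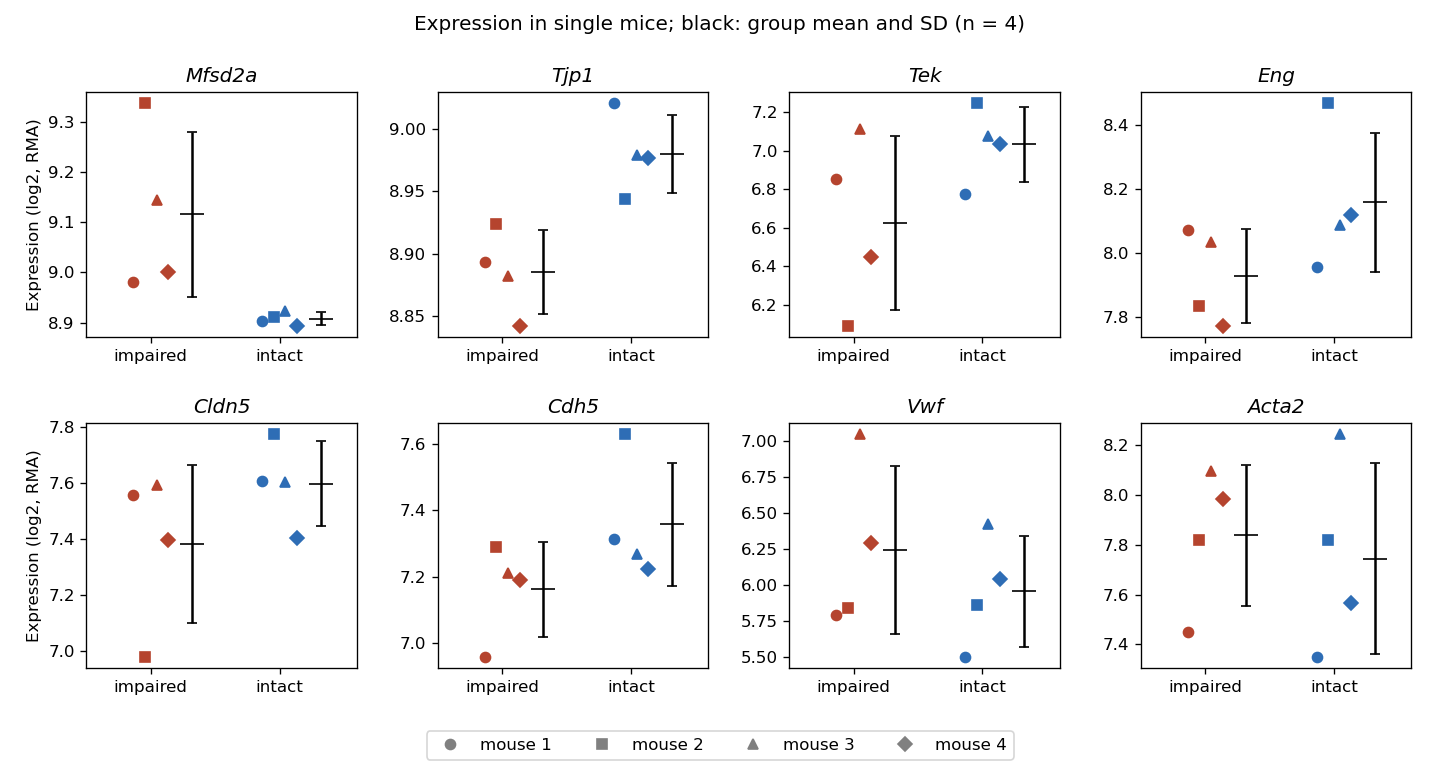
Expression (log2 after RMA, vertical axis, scaled to each gene) of 8 members in each impaired mouse (red, left) and each intact mouse (blue, right), with the group mean and SD in black (n = 4 each). The groups are apart for Mfsd2a and Tjp1, while Tek and Cldn5 are lowest in impaired mouse 2 and the other panels overlap. Marker shapes show the replicate number, and no label says that it pairs mice.

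Of the transporters, Mfsd2a was the one member whose unadjusted p was under 0.05. It encodes the carrier that brings lysophospholipids with docosahexaenoic acid into the brain and keeps vesicle traffic through endothelium low, and other brain cells express it as well. Its values were 8.98, 9.34, 9.14 and 9.00 in the impaired mice, against 8.90, 8.91, 8.92 and 8.89 in the intact mice. All 4 impaired mice were above all 4 intact mice, which lay close together, and impaired mouse 2 was the highest. The difference was 0.21 with a standard error of 0.092, 1.15-fold higher in the impaired mice (limma, adjusted p = 0.961, unadjusted p = 0.0455). It was 0.13 without impaired mouse 2 and 0.25 without impaired mouse 1. Over all settings tried its adjusted p ran from 0.745 to 1.00.

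The nutrient carriers Slc2a1 and Slc7a5 had small differences between the group means. Slc2a1 encodes GLUT1, the glucose carrier of the barrier and, in another form, of astrocytes. It stood at 10.74, 11.50, 11.25 and 11.12 in impaired mice and 11.09, 11.17, 11.04 and 11.25 in intact mice. Impaired mice 1 and 2 were the lowest and the highest of all 8, and the difference of 0.015 had a standard error of 0.14 and a 95% interval from -0.30 to 0.33. Slc7a5, which encodes the amino acid carrier LAT1, had 9.95, 10.27, 10.22 and 10.23 in impaired mice and 9.94, 9.93, 10.08 and 10.31 in intact mice. Impaired mouse 1 and intact mice 1 and 2 were low, and the difference of 0.10 (standard error 0.11) was 0.058 without intact mouse 2.

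The carriers of organic anions and thyroid hormone and the drug pumps had differences of either sign. Slco1a4, an organic anion carrier, ran from 7.64 to 8.10 in impaired mice and from 7.87 to 8.18 in intact mice (difference -0.11, standard error 0.11, and -0.029 without impaired mouse 4), and related Slco1a genes may add to its signal. Slco1c1, a carrier of thyroxine also found in the choroid plexus, had 9.69, 9.13, 9.43 and 9.54 in impaired mice and 9.63, 9.75, 9.44 and 9.56 in intact mice. Impaired mouse 2 was lowest, and without it the difference of -0.14 (standard error 0.12) was -0.040. Abcb1a, which encodes P-glycoprotein, had 8.34, 8.48, 8.74 and 8.43 in impaired mice and 8.50, 8.72, 8.57 and 8.68 in intact mice. The groups overlapped (difference -0.12, standard error 0.10, and -0.069 without impaired mouse 1), and signal shared with the close relative Abcb1b cannot be split here. Abcg2, the pump BCRP, differed by 0.11 (standard error 0.12) and was highest in impaired mouse 3, without which the difference was 0.012.

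Among the other endothelial markers, Vwf, which encodes the clotting protein von Willebrand factor, was the most variable member. It stood at 5.79, 5.84, 7.04 and 6.29 in the impaired mice, against 5.50, 5.86, 6.42 and 6.04 in the intact mice. Impaired mouse 3 was highest and intact mouse 1 lowest, and the difference of 0.29 (standard error 0.27) shrank to 0.020 without impaired mouse 3 and to 0.034 with the choroid plexus score as a covariate. Its mean lay below 6.30, the upper quartile of the intron probe sets. Ly6c1, a surface protein of brain endothelium in mice, had 9.88, 10.14, 10.37 and 10.05 in impaired mice and 9.90, 10.31, 9.82 and 10.20 in intact mice. Impaired mouse 3 and intact mouse 2 were the highest, and the groups overlapped fully (difference 0.055, standard error 0.14). Ly6c2 is a close relative, so that the signal may come from both. Itm2a, a membrane protein enriched in brain endothelium, differed by -0.020 (standard error 0.10).

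Of the pericyte genes, Pdgfrb encodes the receptor through which endothelial PDGF-B recruits pericytes. It had 8.52, 8.18, 8.33 and 8.32 in impaired mice and 8.15, 8.51, 8.36 and 8.22 in intact mice. Both groups spanned the same range, and the difference of 0.023 had a standard error of 0.10 and a 95% interval from -0.21 to 0.25. Rgs5, a regulator of G-protein signalling that marks pericytes, stood at 7.95, 8.16, 7.91 and 8.04 in impaired mice and 8.34, 8.29, 8.11 and 7.97 in intact mice. Intact mice 1 and 2 were above every impaired mouse, and the difference was -0.17 (standard error 0.10, limma, adjusted p = 0.961).

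Abcc9, which encodes the SUR2 subunit of ATP-sensitive potassium channels, had 6.54, 6.76, 6.72 and 6.74 in impaired mice, against 7.01, 6.89, 6.51 and 7.30 in intact mice. Intact mouse 4 was the highest and intact mouse 3 the lowest of all 8. The difference of -0.24 (standard error 0.15) ran from -0.38 without intact mouse 3 to -0.11 without intact mouse 4. Anpep, the peptidase CD13, was 5.90 in intact mouse 4 and between 6.36 and 6.70 in the other mice. Its difference of 0.14 turned to -0.026 without intact mouse 4. Vtn, which encodes vitronectin, differed by 0.082 and Higd1b by -0.050 (standard errors 0.14 and 0.096). The mean deviation of the 6 pericyte genes was -0.076, -0.037, -0.0058 and 0.049 in the impaired mice, against -0.029, 0.14, -0.038 and -0.0077 in the intact mice, with intact mouse 2 apart from the rest.

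The 3 smooth muscle genes varied more between mice of a group than between the groups. Acta2, smooth muscle actin, had 7.45, 7.82, 8.10 and 7.98 in impaired mice and 7.35, 7.82, 8.25 and 7.57 in intact mice. The highest and the lowest value were both in the intact group (difference 0.094, standard error 0.19), and other actin genes may add to the signal. Myh11, the smooth muscle myosin heavy chain, had 5.30, 5.58, 5.75 and 5.95 in impaired mice and 5.09, 5.97, 5.77 and 5.57 in intact mice. Intact mouse 1 was again the lowest, and the difference was 0.043 (standard error 0.19). Tagln, the actin-binding protein SM22, differed by -0.094 (standard error 0.17) and was highest in intact mouse 3. Over these 3 genes the mean deviation was -0.43 in intact mouse 1 and 0.34 in intact mouse 3, a span that holds all 4 impaired mice, from -0.19 to 0.27. The means of Tagln, Myh11 and Higd1b lay below the upper quartile of the intron probe sets, like that of Vwf, so that 28 of 32 members were above it. Above the 95th percentile of these probe sets, 7.92, were 14 of 32 members.

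The members varied between mice within a group more than most genes. Their median residual SD was 0.19, beside 0.15 over all genes tested, and 24 of 32 members exceeded that median of all genes. Single mice stood out over many members at a time. Intact mouse 2 had the highest value of all 8 mice for 10 members, or 31.25%, beside 15.55% of all genes tested. Impaired mouse 3 was highest for 7 members, or 21.88%, beside 13.97%. Impaired mouse 1 was lowest for 9 members, or 28.12%, beside 16.35%, and impaired mouse 2 for 7, or 21.88%, beside 8.71%. Over all 23 endothelial members the mean deviation was -0.11, -0.097, 0.13 and -0.050 in impaired mice 1 to 4, against -0.051, 0.11, 0.0049 and 0.069 in intact mice 1 to 4. The groups overlapped, and impaired mouse 3 was the highest of all.

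**Figure D3:**
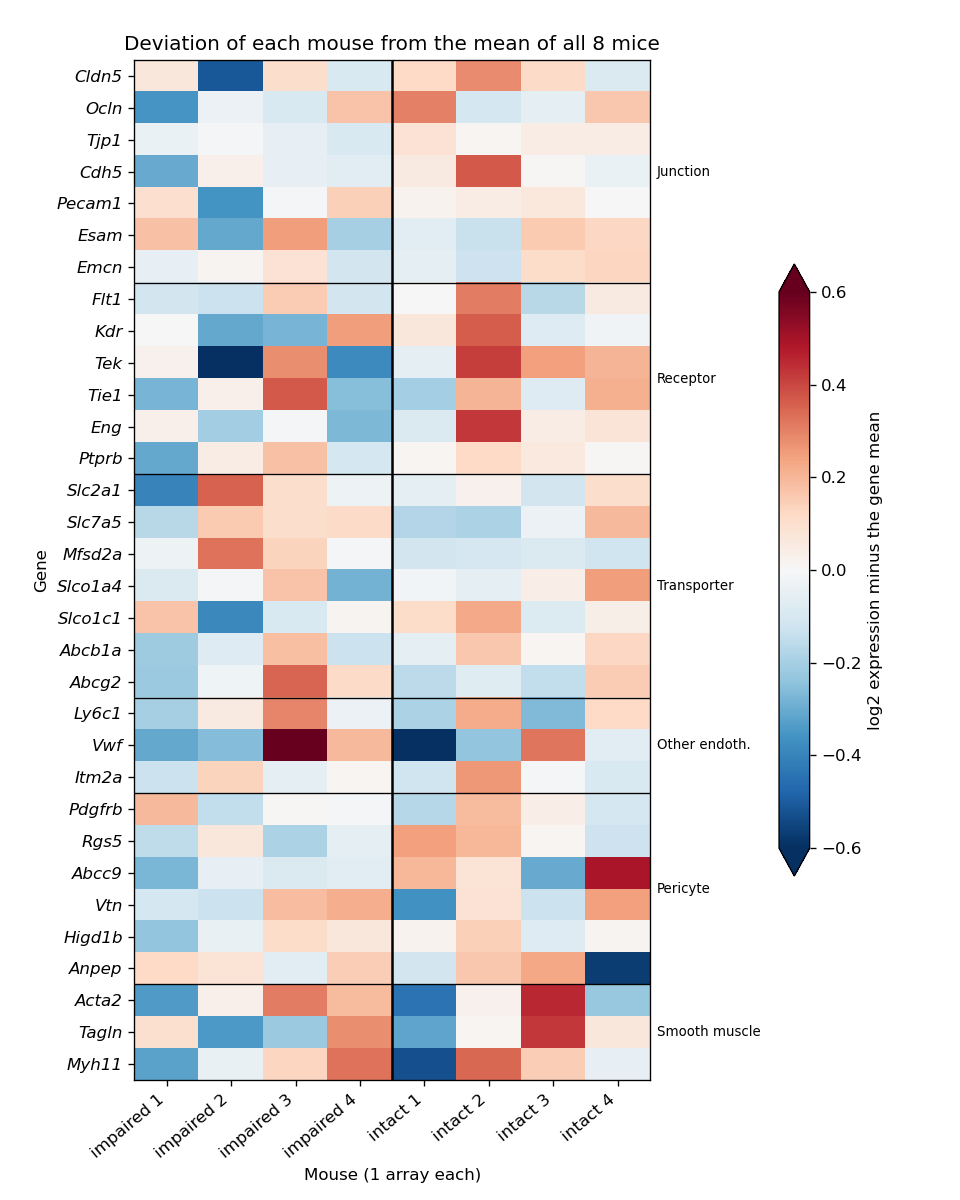
Each cell is the log2 expression of 1 gene (rows, grouped by role) in 1 mouse (columns, 4 impaired on the left and 4 intact on the right) minus the mean of that gene over all 8 mice, from blue (below) to red (above), with colours capped at 0.6. Impaired mouse 2 is blue for Cldn5, Pecam1, Esam, Kdr and Tek but red for Slc2a1 and Mfsd2a, and intact mouse 2 is red for most receptor genes.

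For 27 of 32 members the 95% interval of the difference lay within 0.5 on either side of 0. The exceptions were Cldn5, Tek, Vwf, Abcc9 and Acta2. For 18 of 32 members the sign of the difference held in each alternative setting in which the member was tested, and the other 14 changed sign in at least 1. There were 17 such settings, and 12 members were tested in 16 of them, since a stricter filter on low values left them out.

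Further genes of vessels were listed by pathway, and none passed the adjusted test. A first list joined genes of the VEGF, angiopoietin, Notch, PDGF-B, apelin and TGF-beta pathways with S1pr1. Of its 19 tested genes 8 were lower and 11 higher, with a median difference of 0.027. By an unadjusted p under 0.05, 2 were higher and 0 lower, beside 2.17% of all genes higher and 2.52% lower. Angpt2 encodes angiopoietin 2, a ligand of TIE2 that can act against angiopoietin 1. It had 5.65, 5.98, 5.82 and 5.50 in impaired mice, against 4.85, 5.35, 5.18 and 5.53 in intact mice. Only impaired mouse 4 lay within the intact range, and the difference was 0.51, 1.42-fold (standard error 0.15, unadjusted p = 0.00618, adjusted p = 0.961 by limma). All its values were below the upper quartile of the intron probe sets. Its intact mean of 5.23 lay below the floor of 5.33, so its impaired values alone brought it into the test. Its p therefore carries no weight, and it is 1 of the 2 genes counted as higher.

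S1pr1, a receptor for sphingosine 1-phosphate in endothelium and astrocytes, had 9.58, 9.66, 9.70 and 9.45 in impaired mice and 9.13, 9.36, 9.48 and 9.39 in intact mice. Impaired mice 1, 2 and 3 were above every intact mouse (difference 0.26, standard error 0.098, limma, adjusted p = 0.961). Aplnr, the apelin receptor, differed by 0.30 (standard error 0.14) at values that all lay below the intron quartile, and Vegfa, the ligand of KDR and FLT1, by -0.18 (standard error 0.15). Vegfa was lowest in impaired mouse 1 and highest in intact mouse 2, the mice that were lowest or highest for many members.

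Wnt7a, Wnt7b and Norrin signal to endothelium through Frizzled receptors and maintain barrier genes. The list joined genes of this pathway with Sox and Fox transcription factors. Of its 16 tested genes 5 were lower and 11 higher (median 0.024). By an unadjusted p under 0.05, 1 was lower, beside 2.52% of all genes. That gene was Reck, the partner of Adgra2 in reading Wnt7 signals, with 6.38, 6.39, 6.43 and 6.17 in impaired mice, against 6.57, 6.67, 6.48 and 6.46 in intact mice. The groups did not overlap (difference -0.20, standard error 0.088, limma, adjusted p = 0.961), beside 1.46% of all genes that were lower without overlap. Adgra2 itself differed by 0.22 (standard error 0.11), the endothelial transcription factor Sox18 by -0.20 (standard error 0.11), and the ligand gene Wnt7a by 0.00020 (standard error 0.14).

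Of 28 tested further endothelial genes 17 were lower, beside 52.9% of all genes, and 11 higher (median -0.060). By an unadjusted p under 0.05, 3 were lower, beside 2.52% of all genes, and 1 was higher, beside 2.17%. Nostrin, a protein that binds endothelial nitric oxide synthase, was 6.97, 7.32, 7.34 and 7.00 in impaired mice, against 6.94, 6.83, 6.89 and 6.79 in intact mice. The groups did not overlap (difference 0.30, standard error 0.10, limma, adjusted p = 0.961), beside 1.12% of all genes that were higher without overlap. Tfrc, the transferrin receptor that carries iron across the barrier, had 7.70, 7.95, 7.86 and 7.89 in impaired mice and 7.92, 8.24, 7.95 and 8.25 in intact mice. Impaired mouse 2 was level with the lowest intact mice and the other 3 were below them (difference -0.24, standard error 0.10). Clec14a, an endothelial lectin, differed by -0.32 (standard error 0.14), with intact mouse 3 among the impaired values and all 8 mice below the intron quartile.

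Further mural genes, of which 17 were tested, were lower in 6 and higher in 11 (median 0.025), with 0 at an unadjusted p under 0.05. Their smallest p belonged to Tpm2, a tropomyosin (0.17, standard error 0.11), Foxc1, a transcription factor of mural cells and meninges (0.18, standard error 0.13), and the adhesion molecule Mcam (-0.15, standard error 0.11). Basement membrane genes were lower in 4 and higher in 8 of 12 (median 0.023), also with 0 at that threshold. Lama4, the endothelial laminin chain, differed by 0.13, Lama5 by -0.17 and the proteoglycan Hspg2 by -0.16 (standard errors 0.080, 0.17 and 0.11). Of 9 genes of fenestrated or inflamed endothelium on the array, 2 lay below the floor on low values. The 7 tested ones had higher means in the impaired mice (median 0.052), beside 47.1% of all genes, with 0 at an unadjusted p under 0.05. Plvap, which builds the diaphragms of fenestrated vessels, differed by 0.032 (standard error 0.17) and Icam1 by 0.098 (standard error 0.085). Single mice weighed on these differences. That of Plvap turned to -0.10 without impaired mouse 4 and that of Lcn2 from 0.29 to -0.10 without impaired mouse 3. Without intact mouse 3, Ackr1 fell from 0.15 to 0.010 and Icam1 to 0.048.

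Other cells that touch vessels were followed by their own markers. Of 6 tested markers of perivascular macrophages 5 were higher in the impaired mice, beside 47.1% of all genes, and the median difference was 0.28. By an unadjusted p under 0.05, 3 were higher, beside 2.17% of all genes. The scavenger receptor Cd163 had 5.91, 5.84, 6.17 and 5.92 in impaired mice, against 5.65, 5.66, 5.78 and 5.74 in intact mice. It was higher without overlap, beside 1.12% of all genes. Cbr2 had 7.48, 7.43, 7.77 and 7.65 in impaired mice, against 7.13, 7.00, 7.29 and 7.49 in intact mice, where only intact mouse 4 reached the impaired range. The differences were 0.26 and 0.35, and that of Lyve1 was 0.30 (standard errors 0.090, 0.12 and 0.11, limma, adjusted p = 0.961 for each). Cd163 and Lyve1 lay near or below the upper quartile of the intron probe sets. The mean level of these 6 markers was 6.32 to 6.63 in impaired mice and 6.07 to 6.35 in intact mice.

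Markers of fibroblasts of the meninges and larger vessels were higher in 7 of 8 tested, beside 47.1% of all genes, with a median difference of 0.14. Their mean level was 8.08 to 8.41 in impaired mice and 7.85 to 8.18 in intact mice. Only 1 was higher by an unadjusted p under 0.05, beside 2.17% of all genes. That gene was Slc22a6, an organic anion carrier (difference 0.50, standard error 0.16, limma, adjusted p = 0.961). Slc6a13, a GABA carrier, differed by 0.32 (standard error 0.16). Markers of astrocyte endfeet were lower in 4 and higher in 4 of 8 (median 0.0074), at a mean level of 10.04 to 10.27 in impaired mice and 10.08 to 10.28 in intact mice. Aqp4, the water channel of the endfeet, had 9.49, 9.89, 9.90 and 9.86 in impaired mice and 9.85, 9.97, 9.47 and 9.90 in intact mice. Impaired mouse 1 and intact mouse 3 were low, and the difference was -0.012 (standard error 0.13). The gap junction gene Gjb6 differed by 0.26 (standard error 0.10, limma, adjusted p = 0.961).

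**Figure D4:**
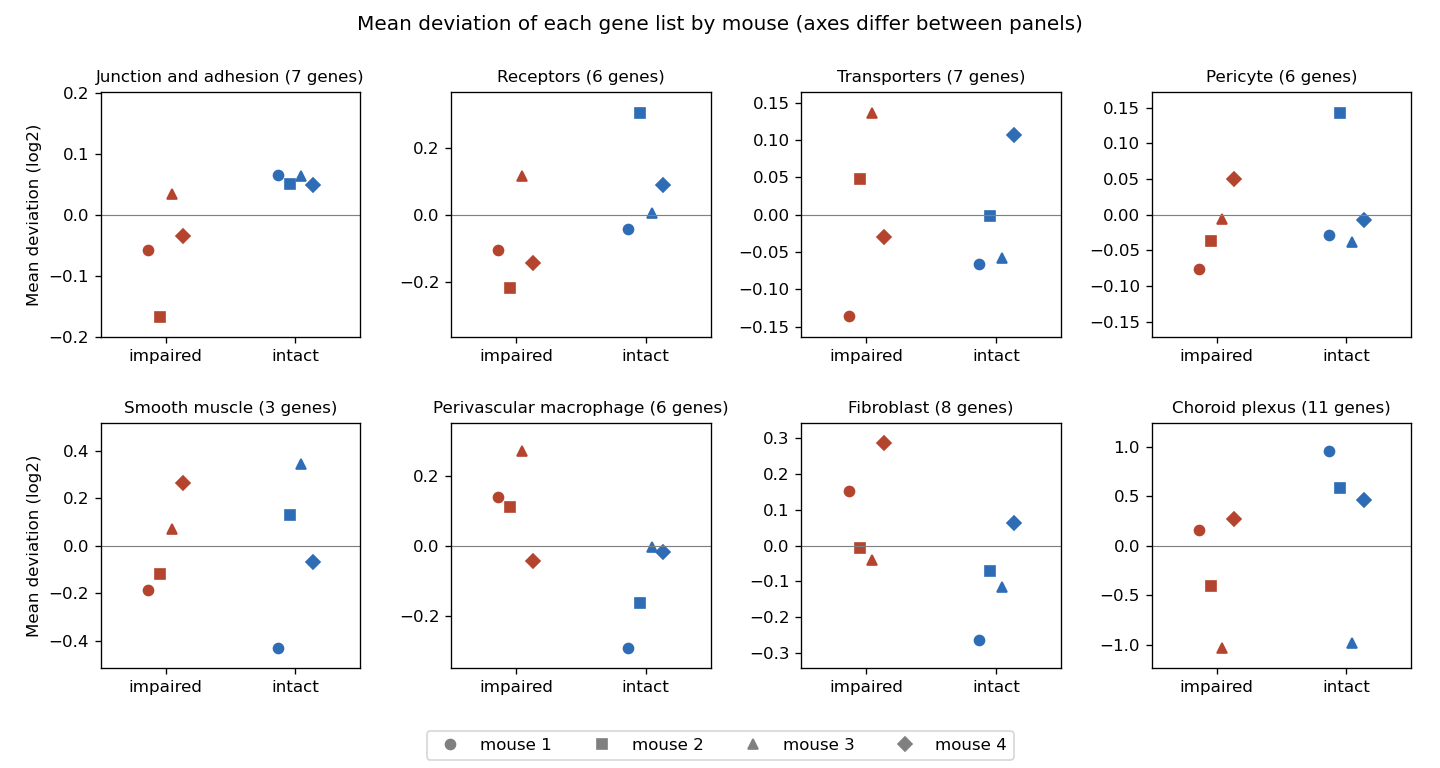
Mean deviation of each gene list (log2, vertical axis, scaled to each panel) from its average over all 8 mice, for impaired mice (red, left) and intact mice (blue, right). The mean over the 7 junction genes is lower in every impaired mouse than in every intact mouse, by a narrow gap from 0.034 to 0.048. Of these 7 genes, 1 alone has groups without overlap. The other lists plotted overlap, and the choroid plexus list spans the widest range, from -1.03 to 0.95.

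Markers of tissue that borders the hippocampus varied between the mice. Markers of choroid plexus epithelium had lower means in the impaired mice in 11 of 11 (median -0.61). Their mean level was 6.82 to 8.12 in impaired mice and 6.86 to 8.80 in intact mice. Thalamic neuron markers were higher in 10 of 10 (median 0.32), beside 47.1% of all genes. They stood at 9.02 to 9.66 in impaired mice and 7.77 to 9.69 in intact mice, with intact mouse 3 far below the rest. Oligodendrocyte markers were lower in 9 of 9 (median -0.16), beside 52.9% of all genes. Their mean level was 9.57 to 10.01 in impaired mice and 9.54 to 10.22 in intact mice. Markers of hippocampal neurons were lower in 4 and higher in 4 of 8 (median -0.025), and those of microglia lower in 3 and higher in 6 of 9 (median 0.0087). With the plexus score as a covariate 24 of 32 members were lower, and with the thalamus score 23, and in both fits all 13 junction and receptor genes were lower. These fits rest on scores from the same 8 arrays. The part of bordering tissue or of oligodendrocyte content in the result was not tested.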

How the data were processed

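RNA of 8 hippocampi was measured on 1-colour Affymetrix arrays, 1 per mouse. Sense cDNA was made from 1 ng of RNA (WT Pico kit), per the labels. The authors deposited log2 values from RMA, per the submitters' processing notes. The software version is not given in the sources used here, nor is a genome build. RMA equalizes arrays by quantiles and compresses differences of dim genes.

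Of 22206 target probe sets, 19572 had 1 gene symbol in the platform's table, 0 had several and 2634 are unnamed here. All 19572 matched RefSeq (GRCm38.p6) by Entrez identifier. The brightest probe set stood for a gene, and the 25% of genes with the lowest mean (below 5.33) were left out. Array medians over the tested genes were 7.75 to 7.79, and pairs of arrays correlated at 0.979 to 0.989 across genes.

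Impaired and intact mice were compared with limma 3.58.1 in R 4.3.3 (two-sided, Benjamini-Hochberg over 14628 genes, threshold 0.05). Precision is limited by how few arrays there are. The fit was tested on simulated data. The members, lists, the naming rule (smallest p per list, groups without overlap, and some genes in any case) and the alternatives were chosen with earlier results of these data known. Scan batches were not analysed here. No label says that replicate numbers pair the mice, and the deviations of same-numbered mice correlated at -0.10 to 0.033. Figures were drawn with matplotlib 3.10.9.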

Additional observations from a re-analysis of the deposited data

Results flagged for a closer look

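In 11 of 212 groups of 4 mice checked, 1 mouse stood apart from the others by Dixon's criterion, where chance flags about 1 in 20. Among the members, Flt1 was 8.98 in impaired mouse 3 and 8.70 to 8.72 in the other impaired mice, and Slc7a5 was 9.95 in impaired mouse 1 and 10.22 to 10.27 in the others. The mean deviation of the pericyte genes was 0.14 in intact mouse 2 and -0.038 to -0.0077 in the other intact mice.

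Outside the members, Clec14a was 5.32 in impaired mouse 2 (others 5.60 to 5.62) and 5.44 in intact mouse 3 (others 5.95 to 6.03). Aqp4 was 9.49 in impaired mouse 1 (others 9.86 to 9.90), and Lum, a proteoglycan of fibroblasts, was 6.33 in impaired mouse 1 (others 5.70 to 5.78). C1qa, a complement gene of microglia, was 8.90 in impaired mouse 3 (others 8.28 to 8.31) and 7.69 in intact mouse 3 (others 8.41 to 8.56). Ttr, made by the choroid plexus, was 10.56 in intact mouse 3 (others 13.28 to 13.69), and Wfs1, a marker of CA1 neurons, was 9.17 in intact mouse 4 (others 9.69 to 9.75).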

How the results depend on the processing

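No member passed the adjusted threshold in any of 17 alternatives, and the smallest adjusted p of a member was 0.745 (Mfsd2a, without impaired mouse 4). When limma's prior was made robust and followed intensity, 1 gene passed, Scg5, no member, and 2 members had an unadjusted p under 0.05 (Mfsd2a and Tek), against 0 with no filter on low values. Leaving out each mouse in turn gave 0 to 2 such members and 486 to 936 such genes in all. Mfsd2a was among them only without impaired mouse 1 (with Tek) or impaired mouse 4. The members were Tek without impaired mouse 3, Eng and Tek without intact mouse 1, Abcc9 without intact mouse 3 and Rgs5 without intact mouse 4, and 0 without impaired mouse 2 or intact mouse 2. With the plexus score as a covariate the member was Tek, and with the thalamus score Abcc9. With the lowest 50% of genes left out, 434 genes had such a p, since fewer were tested, and 20 members were kept. The median difference of the members stayed between -0.095 and -0.050 in all settings. With the plexus score as a covariate Acta2, Myh11 and Slc2a1 turned to -0.092, -0.035 and -0.014, and with the thalamus score Ly6c1 and Slc2a1 turned to -0.042 and -0.050; the cause was not tested. Among members that kept their sign in these fits, moves under the plexus score included Vwf to 0.034, Kdr to -0.065, Slco1c1 to -0.073 and Abcc9 to -0.15. Under the same score Esam moved to -0.11, Emcn to -0.081, Tie1 to -0.14, Tek to -0.48, Ptprb to -0.15 and Slco1a4 to -0.16. Moves under the thalamus score included Abcc9 to -0.34, Tie1 to -0.15, Anpep to 0.22, Tagln to -0.0029, Flt1 to -0.16 and Abcg2 to 0.059. Without single mice, small differences changed sign: Pecam1 ran from -0.12 to 0.046, Esam from -0.13 to 0.054, Emcn from -0.074 to 0.012, Tie1 from -0.20 to 0.014, Slc2a1 from -0.10 to 0.15, Ly6c1 from -0.033 to 0.14, Itm2a from -0.068 to 0.063, Pdgfrb from -0.038 to 0.090, Vtn from -0.026 to 0.18, Higd1b from -0.096 to 0.020, Anpep from -0.026 to 0.24, Acta2 from -0.038 to 0.26, Tagln from -0.22 to 0.033 and Myh11 from -0.13 to 0.17. With the replicate number as a block, 0 genes passed and 633 had an unadjusted p under 0.05, among them 1 member, Vwf; no mouse correlated best with its own number, 0 of 8. Signal near background limits Vwf, Higd1b, Tagln and Myh11.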

Other observations

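Alas2, the first enzyme of haem synthesis in red cell precursors, was 6.73, 6.75, 6.39 and 6.92 in impaired mice, against 7.15, 7.16, 7.02 and 7.11 in intact mice. The groups did not overlap, beside 1.46% of all genes that were lower without overlap. The difference was -0.41 (standard error 0.11, limma, adjusted p = 0.961), while Slc4a1, the anion exchanger of red cells, differed by -0.0075 (standard error 0.095). These 2 were the erythrocyte markers measured. Lcn2, a secreted protein of inflamed endothelium and astrocytes, ranged more widely, with 5.54, 6.65, 8.03 and 7.18 in impaired mice and 6.45, 6.24, 6.43 and 7.13 in intact mice. Impaired mouse 1 was the lowest and impaired mouse 3 the highest of all 8 mice.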
